A study of Rattus norvegicus with 4 samples.

Results

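Sqstm1, Map1lc3b and Becn1 are 3 genes of macroautophagy, and they were chosen by their Ensembl identifiers, ENSRNOG00000003147, ENSRNOG00000017905 and ENSRNOG00000020513. They are 3 of the 33832 gene IDs in the deposited table. All 3 had reads in every library and were among the 14056 IDs tested. The cells were MMQ, an established prolactin-secreting cell line from a rat pituitary tumour, kept in medium with fetal bovine and horse serum. The treated cultures received UNC9994, which the series title calls a DRD2 agonist, at 15 µM for 12 h or 24 h, and the control cultures received the vehicle DMSO for the same times. Each of the 4 combinations of agent and time is 1 library, so no combination has a replicate, and agent, culture and library cannot be told apart within a time.

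In macroautophagy a cell wraps cytoplasm, damaged organelles or protein aggregates in a double membrane, the autophagosome, and delivers it to the lysosome for breakdown. Becn1 encodes beclin 1, a core subunit of the class III phosphatidylinositol 3-kinase complex that acts early, when the membrane forms. Map1lc3b encodes LC3B, an ATG8 family protein that is joined to a lipid of the growing membrane. Sqstm1 encodes p62, a cargo receptor that binds ubiquitinated proteins and LC3 and is itself degraded with its cargo. The Sqstm1 gene is also a known transcriptional target of stress pathways, and p62 protein and Sqstm1 mRNA can therefore move in different directions. Only mRNA was measured here, so none of the values below reports how much autophagy took place.

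The sequence before the gene start was available for 2 of the 3 genes, Sqstm1 and Map1lc3b, and is shown for both. Availability alone set this choice, and no stretch of Becn1 stands beside them. Whether the letters relate to the difference between UNC9994 and DMSO was not tested. The 250 bases before the RefSeq gene start are taken from build GRCr8, whereas the deposited values rest on Rnor_6.0. The Sqstm1 stretch is chr10:35037751-35038000 on the minus strand and the Map1lc3b stretch is chr19:66574345-66574594 on the plus strand. Both are written 5′ to 3′ along the gene, with matches to the searched motifs in capitals.
Sqstm1: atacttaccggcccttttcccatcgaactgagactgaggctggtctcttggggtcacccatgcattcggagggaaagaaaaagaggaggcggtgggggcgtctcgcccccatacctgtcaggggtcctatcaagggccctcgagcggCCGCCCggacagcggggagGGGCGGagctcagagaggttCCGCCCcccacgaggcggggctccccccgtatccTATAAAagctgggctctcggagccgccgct
Map1lc3b: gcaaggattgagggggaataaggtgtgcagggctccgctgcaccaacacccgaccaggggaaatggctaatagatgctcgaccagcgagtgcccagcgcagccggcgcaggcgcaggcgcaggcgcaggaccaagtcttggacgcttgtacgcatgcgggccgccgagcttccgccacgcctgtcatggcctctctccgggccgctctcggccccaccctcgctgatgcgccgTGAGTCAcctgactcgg

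The motif patterns named here were searched on both strands. The capitals in Sqstm1 mark 3 GC boxes (GGGCGG or its reverse complement CCGCCC), whose first bases lie 103, 84 and 64 bases before the start, and 1 TATA box (TATAAA) at 30 bases before it. A GC box occurred in 32.4% of the 27457 rat promoters of the same length and a TATA box in 13.1%. The capitals in Map1lc3b mark 1 AP-1 site (TGANTCA, here TGAGTCA) at 17 bases before the start, a motif found in 6.36% of promoters. The antioxidant response element (TGACNNNGC, in 10.2% of promoters), the E-box CACGTG (5.79%), the cAMP response element (TGACGTCA, 1.7%) and the C/EBP-ATF composite element (TGATGNAA, 3.27%) had no match in either stretch. Both stretches were rich in G and C, at 65.2% for Sqstm1 and 67.2% for Map1lc3b against a median of 52.0%, and they held 19 and 24 CG dinucleotides against a median of 6. A match is a description of the letters, and sites further from the start were not searched.

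The 4 libraries held 17433867 to 21728374 reads, recovered from the deposited FPKM. This level divides fragments by gene model length and by a divisor for each library. The divisors were not the recovered totals, which were 95.61% to 99.57% of them. The median ratio of an ID to its geometric mean over the 4 libraries was 1.00248 in every library. By that measure the deposited values were already level between libraries. The recovered gene model lengths were 2027 bases for Sqstm1, 1840 for Map1lc3b and 3717 for Becn1. The fewest reads behind any value of the 3 genes were 2338, for Becn1 in DMSO at 24 h, and the most were 27861, for Sqstm1 in UNC9994 at 12 h. The authors' handling of strand and of reads shared with related gene copies is not stated. The files do not pair IDs with gene names, so the lactotroph markers and the other 96 genes of the autophagy, lysosome and cell type lists are not analysed here.

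Sqstm1, the cargo receptor gene, was the most abundant of the 3 and was higher with UNC9994 at both times. Its level was 268.3 FPKM in DMSO at 12 h, 213 FPKM in DMSO at 24 h, 605 FPKM in UNC9994 at 12 h and 421 FPKM in UNC9994 at 24 h. Both UNC9994 libraries lay above both DMSO libraries, without overlap. Such an order is common in these data: the agents did not overlap in 58.5% of tested IDs, and in 28.9% both UNC9994 libraries lay above both DMSO libraries. Sqstm1 rose by 1.08 ± 0.10 on the log2(FPKM + 0.5) scale over both times (SE, 4 libraries, 95% limma interval 0.82 to 1.34), with an adjusted p of 0.0108 in limma with terms for time and agent. In that fit 8.57% of IDs passed the threshold of 0.05, 3.41% as higher and 5.16% as lower.

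The call for Sqstm1 depended on the fit, and the size of its change on the libraries included. With no filter on low values its adjusted p was 0.113 and with no variance trend it was 0.0531, and neither of these fits called any ID, although 3795 and 3660 IDs had an unadjusted p under 0.05. With the time term dropped, all 4 libraries gave 1.08 (limma adjusted p = 0.0394). In the same fit, leaving out DMSO at 12 h gave 1.24 in log2 and leaving out DMSO at 24 h gave 0.91. Leaving out UNC9994 at 12 h gave 0.82 and leaving out UNC9994 at 24 h gave 1.34. Not all of these fits kept the call, but each has 1 library for an agent and no time term. A lost call can therefore not be laid to the library left out. The direction was the same in all 14 alternative fits.

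**Figure D1:**
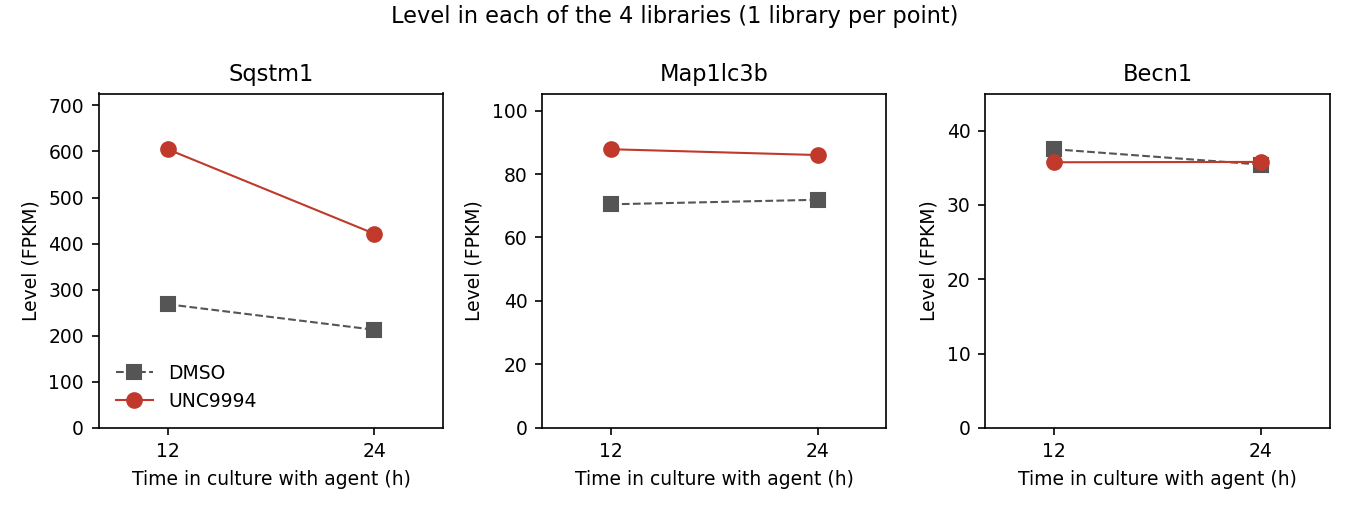
Level in FPKM (vertical axes, from 0, a separate scale for each gene) against time in hours in the 4 libraries; squares are DMSO, circles UNC9994, each point is 1 library and the lines join libraries of the same agent. Sqstm1 lies at 605 and 421 FPKM with UNC9994 against 268.3 and 213 with DMSO, Map1lc3b at 87.8 and 86.0 against 70.5 and 71.9, and the Becn1 points lie between 35.4 and 37.5.

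At single times the size of the Sqstm1 difference can be given with counting error only. At 12 h the level was 2.25-fold higher with UNC9994 (95% counting interval 2.20 to 2.30). At 24 h it was 1.98-fold higher (1.93 to 2.03). At 12 h, 1.93% of 10810 IDs were at least 2-fold higher, and Sqstm1 ranked 138th from the top. At 24 h, 1.37% of 10785 IDs were at least 2-fold higher, and Sqstm1, just under that fold, ranked 151st. The 24 h fold was 0.878 times the 12 h fold (counting interval 0.848 to 0.909), a log2 difference of -0.19. Over the 4559 IDs that averaged 1000 reads or more, the responses at the 2 times differed by a median of 0.13 in absolute log2 value. The SD of the signed difference was 0.26. The gap for Sqstm1 lay above that median and within 1 SD. With 1 library per combination this difference has no test.

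By level, Sqstm1 ranked higher among all IDs in the UNC9994 libraries. It was 274th of the 17835 IDs above 0 in DMSO at 12 h and 326th of 17714 in DMSO at 24 h. In UNC9994 it was 99th of 18334 at 12 h and 147th of 18004 at 24 h. Scaled to the library total only, Sqstm1 had 546 CPM in DMSO at 12 h (exact 95% interval 536 to 557) and 1282 CPM in UNC9994 at 12 h (1267 to 1297). At 24 h it had 439.7 CPM in DMSO (429.9 to 449.6) and 866 CPM in UNC9994 (854 to 879). Among the 479 IDs that rose in the fit, Sqstm1 was the second by mean level and the 95th by size of the change, and of the 114 that rose at least 2-fold it had the highest mean level.

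Sqstm1 was lower at 24 h than at 12 h under both agents. The level at 24 h was 0.794 times that at 12 h in DMSO (counting interval 0.771 to 0.817) and 0.697 times in UNC9994 (0.684 to 0.71). The time effect common to both agents was -0.43 ± 0.10 on the log2 scale (SE, 4 libraries), with an unadjusted p of 0.00764 and a limma adjusted p of 0.482, which misses the threshold. In that fit 0.0% of IDs passed for time, while 1041 had an unadjusted p under 0.05. Other fits called between 0 and 23 IDs for time: 23 with a floor of 5 CPM in 2 libraries, 5 with robust moderation, 2 with a pseudocount of 0.1 and 0 with voom weighting of the recovered reads. Sqstm1 was not among the calls of any of them, its adjusted p for time being 0.305 or more. Taken across times, UNC9994 at 24 h still stood above DMSO at 12 h, by 1.57-fold (1.53 to 1.61), and UNC9994 at 12 h stood above DMSO at 24 h by 2.84-fold (2.77 to 2.91). The smallest of the 4 ratios of a UNC9994 library to a DMSO library was therefore 1.57 and the largest 2.84.

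**Figure D2:**
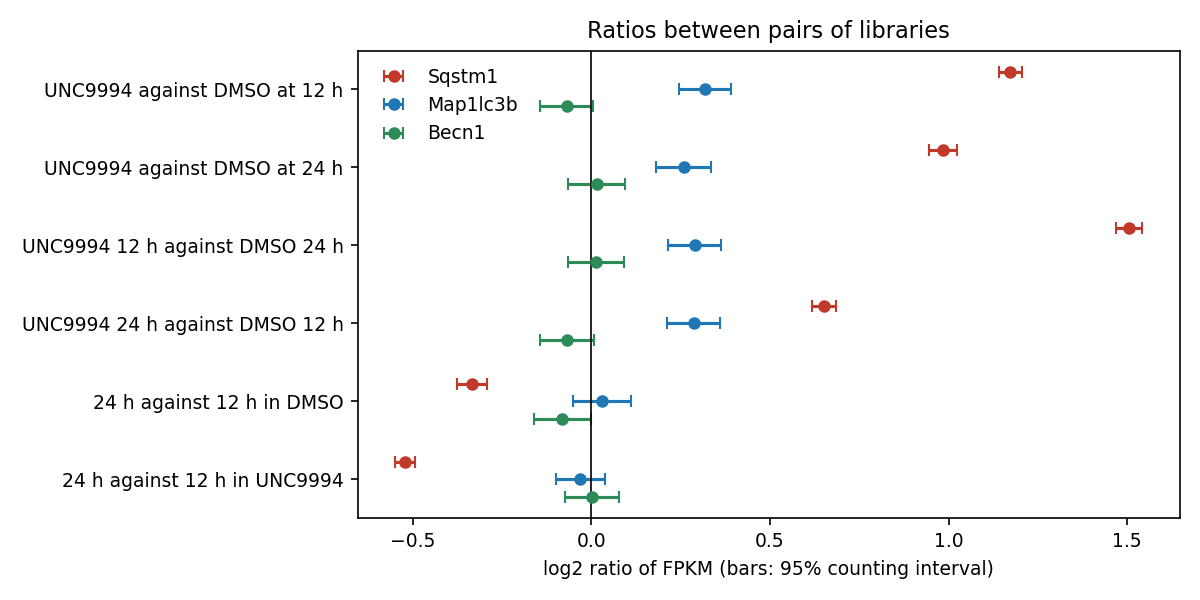
Log2 ratio of FPKM (horizontal axis) for 6 pairs of libraries (vertical axis), with points for the 3 genes and bars for the 95% counting interval, which holds no culture-to-culture error. The Sqstm1 points lie between 0.65 and 1.51 in the 4 pairs of UNC9994 with DMSO and at -0.33 and -0.52 in the pairs of 24 h with 12 h; Map1lc3b lies between 0.26 and 0.32 in the UNC9994 pairs and Becn1 stays between -0.08 and 0.01.

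Map1lc3b, the gene of the autophagosome membrane protein LC3B, was higher in the UNC9994 libraries by a smaller amount that did not pass the test. Its level was 70.5 FPKM in DMSO at 12 h, 71.9 FPKM in DMSO at 24 h, 87.8 FPKM in UNC9994 at 12 h and 86.0 FPKM in UNC9994 at 24 h. The groups did not overlap, as in 58.5% of tested IDs, and in 28.9% both UNC9994 libraries lay above both DMSO libraries. The Map1lc3b libraries of the same agent were close to each other. Its level at 24 h against 12 h was 1.02-fold in DMSO (counting interval 0.964 to 1.08) and 0.979-fold in UNC9994 (0.934 to 1.03). UNC9994 stood above DMSO 1.25-fold at 12 h (1.19 to 1.31) and 1.2-fold after 24 h (1.13 to 1.26), so the difference was larger than counting error at each time.

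The log2 fold change of Map1lc3b over both times was 0.29 ± 0.074 (SE, 4 libraries, 95% limma interval 0.10 to 0.47). Its unadjusted p was 0.00989 and its limma adjusted p was 0.0735, above the threshold. The adjusted p lay between 0.054 and 0.212 over the 14 alternative fits, and the log2 fold change between 0.27 and 0.31. A difference of this size was common: 67.0% of tested IDs had a smaller absolute log2 fold change, and 82.9% a lower signed value. The time effect of Map1lc3b was -0.0008 ± 0.074 (limma adjusted p = 0.999).

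Becn1, the gene of the early kinase complex subunit beclin 1, differed least between the libraries. Its level was 37.5 FPKM in DMSO at 12 h, 35.4 FPKM in DMSO at 24 h, 35.7 FPKM in UNC9994 at 12 h and 35.8 FPKM in UNC9994 at 24 h. The highest and the lowest value were both DMSO libraries, and the UNC9994 values lay between them. The ratio of UNC9994 to DMSO at 12 h was 0.953, with a counting interval of 0.905 to 1.004. The 24 h ratio was 1.01 (0.956 to 1.07), and both of these intervals include 1. Within DMSO, 24 h against 12 h was 0.945-fold, with a counting interval of 0.894 to 0.999 that leaves out 1. Within UNC9994 it was 1.001-fold (0.951 to 1.054).

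Over both times the log2 fold change of Becn1 was -0.03 ± 0.078 (SE, 4 libraries), with a limma adjusted p of 0.856. Its 95% limma interval ran from -0.22 to 0.17, so the fit does not show equality and leaves room for changes of that size. The absolute change was smaller in 8.49% of tested IDs. The time effect of Becn1 was -0.04 ± 0.078 (limma adjusted p = 0.935). Scaling to total reads in place of the deposited scaling moved the 12 h log2 ratio of Becn1 from -0.07 to -0.01, since the UNC9994 12 h library had the recovered total furthest below its divisor, 95.6%.

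**Figure D3:**
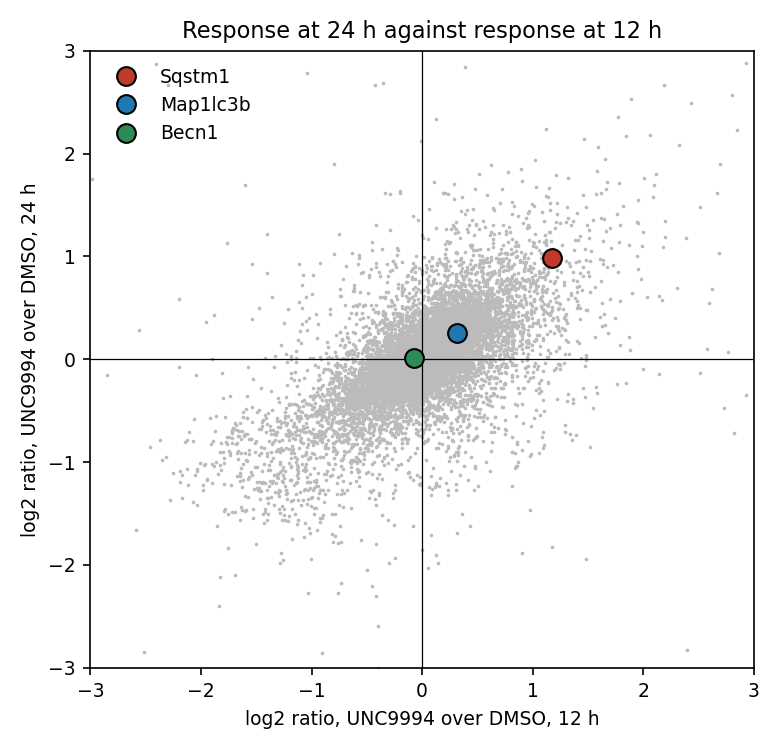
Log2 ratio of UNC9994 over DMSO at 24 h (vertical axis) against the same at 12 h (horizontal axis) for 13161 IDs with at least 10 reads in every library (grey; 43 lie outside the axes), with the 3 genes in colour. Sqstm1 lies at 1.17 and 0.98, toward the upper right edge of the cloud, Map1lc3b at 0.32 and 0.26 inside it, and Becn1 at -0.07 and 0.01 near the centre.

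The order of the 3 genes by level was the same in all 4 libraries, with Sqstm1 above Map1lc3b above Becn1 in FPKM, a scale per length. The gap between Sqstm1 and Map1lc3b was wider in the UNC9994 libraries. Sqstm1 was 3.81 times Map1lc3b in DMSO at 12 h and 2.96 times in DMSO at 24 h, against 6.89 times in UNC9994 at 12 h and 4.9 times in UNC9994 at 24 h. Against Becn1, Sqstm1 stood at 7.16 and 6.01 times in DMSO and at 16.9 and 11.8 times in UNC9994, at 12 h and 24 h. Map1lc3b stood at 1.88 and 2.03 times Becn1 in DMSO and at 2.46 and 2.4 times in UNC9994. These ratios are within a library, so they do not depend on how the libraries were scaled. Each of the 3 ratios was higher in both UNC9994 libraries than in either DMSO library. The ratios share members and restate the levels above, so they are not 3 separate results. Among single IDs, 58.5% of those tested did not overlap between the agents, and the share among ratios was not worked out.

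The pattern of each gene over the 4 libraries was set beside those of all 11784 tested IDs whose log2(FPKM + 0.5) averaged 1 or more, as the root mean square difference of centred log2 values. The values were not scaled to the size of the change, so an ID with a large change has few IDs near it. Sqstm1, whose absolute change exceeded that of 97.3% of tested IDs, had 5 IDs within 0.1 and none within 0.05. These counts restate the size of its change and say nothing more about its pattern. The nearest, at 0.053, was an ID without an Ensembl number with 1.02 FPKM in DMSO at 12 h, 0.716 in DMSO at 24 h, 3.2 in UNC9994 at 12 h and 1.84 in UNC9994 at 24 h. At that low level the pseudocount of 0.5 narrows differences. The plain FPKM ratios of this ID, 3.13 at 12 h and 2.57 at 24 h, were larger than those of Sqstm1. The ID reached the average of 1 only through its UNC9994 libraries. Map1lc3b had 1699 IDs within 0.1, the nearest being ENSRNOG00000026833 at 0.0075, with 17.7, 18.2, 22.2 and 22.0 FPKM in the same order of libraries. Becn1 had 3878 within 0.1, the nearest being ENSRNOG00000021032 at 0.0055, with 24.9, 23.4, 23.8 and 23.8 FPKM. The 3 genes themselves lay further apart, at 0.45 for Sqstm1 and Map1lc3b, 0.59 for Sqstm1 and Becn1 and 0.16 for Map1lc3b and Becn1.

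**Figure D4:**
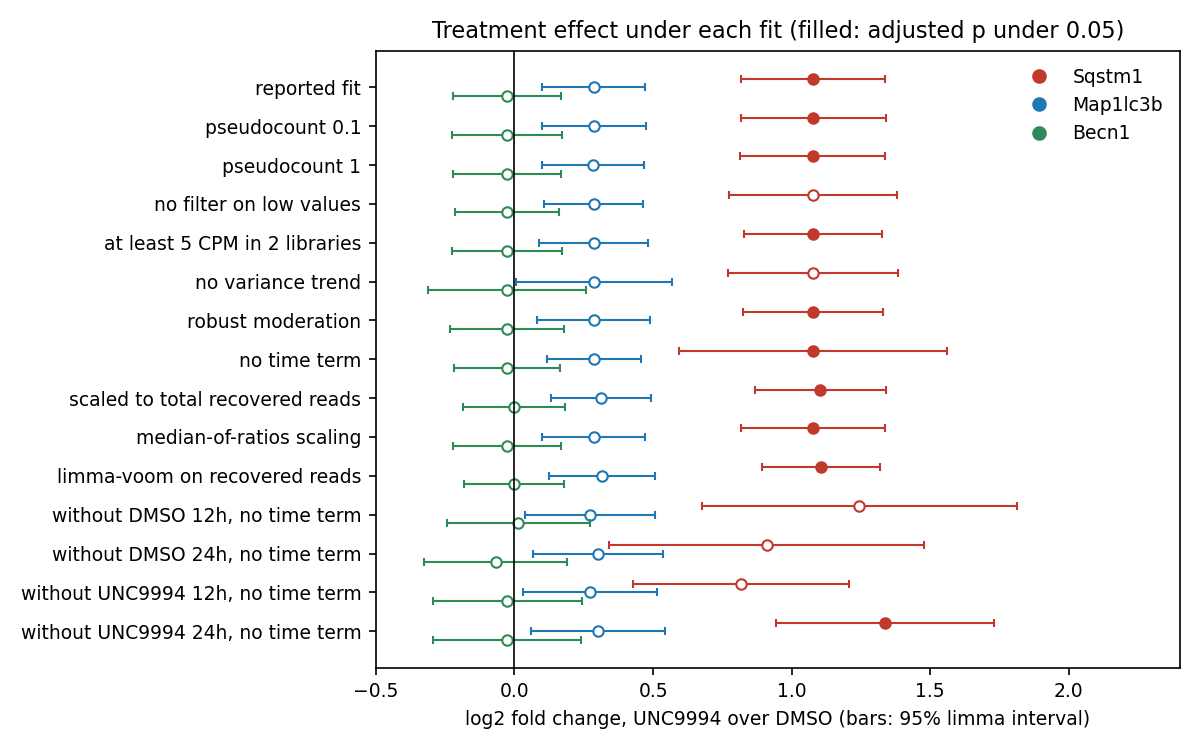
Log2 fold change of UNC9994 over DMSO over both times (horizontal axis, bars show the 95% limma interval) under the reported fit and 14 alternatives (vertical axis); filled points have an adjusted p under 0.05. Sqstm1 is between 0.82 and 1.34 and is filled in the reported fit and in 9 alternatives, Map1lc3b is between 0.27 and 0.31 and is open throughout, and Becn1 lies between -0.07 and 0.01 and is open throughout.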

How the data were processed

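RNA was selected for polyadenylation, reverse-transcribed with random hexamers and fragmented as cDNA, per the labels' protocols. Values are FPKM made by the authors, per the file headers; the series table's name speaks of raw counts, which its decimals contradict. The submitters' processing notes name CASAVA, TopHat2 2.0.7, Bowtie2, HTSeq and Rnor_6.0; the annotation release is not given in the sources used here. After 1209 exact repeats and 1 truncated ID were removed, 33832 IDs remained, and the single-sample tables held the same values. Of 47357 RefSeq rat genes (GRCr8), 0 carried an Ensembl ID, so only the 3 genes given by identifier are named, with the nearest ID of each by pattern.

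Reads were recovered as the smallest gene model length, from 40 bases, at which the reads of all 4 libraries came out whole, within 0.001 of a read; this held for all 16009 IDs above 0 in every library, and for 0 of 300 IDs disturbed by up to 1%. The disturbed IDs were drawn only from IDs above a minimum number of reads in every library. They therefore do not check the recovery for IDs with few reads. A common factor of the 4 read numbers remains possible for single IDs. Counting intervals (exact binomial, 95%, scipy 1.17.1) use these reads and cover counting error only. The interval of the ratio of the 12 h and 24 h folds is a normal approximation on log reads.

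limma (3.58.1, R 4.3.3) was run on log2(FPKM + 0.5) with time and treatment terms and a variance trend, over the 14056 IDs with at least 10 reads in at least 2 libraries, with Benjamini-Hochberg adjustment at 0.05. It has 1 residual degree of freedom, moderated by 4.48 prior ones taken from all tested IDs. With 1 library per combination, that residual is the gap between the 12 h and 24 h responses. It cannot separate error between cultures from a response that differs between the times. The p-values therefore carry no error from replicate cultures. Pairs of libraries were compared over IDs with at least 5 CPM in 1 or both. The read recovery and the fit were tested on simulated data. The genes, lists, tests and alternatives were chosen with earlier results of these data known.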

Additional observations from a re-analysis of the deposited data

Results flagged for a closer look

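Becn1 had opposite signs at the 2 times: the log2 ratio of UNC9994 to DMSO was -0.0692 at 12 h and 0.0146 at 24 h. This difference between the times has no test, because there was 1 library for each agent and time. The counting interval of the difference, -0.02 to 0.19 in log2, includes 0.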

How the results depend on the processing

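The number of IDs called for UNC9994 against DMSO was 0 with no filter on low values, 0 with no variance trend and 1979 with at least 5 CPM in 2 libraries, against the reported 1204; dropping the time term gave 851 in all 4 libraries, and leaving out 1 library as well gave 86 (DMSO 12 h left out), 116 (DMSO 24 h), 443 (UNC9994 12 h) and 782 (UNC9994 24 h). The log2 fold change of Sqstm1 was 1.08 with no filter and 1.08 with no variance trend, with limma adjusted p-values of 0.113 and 0.0531, above the threshold. It was 1.24, 0.91, 0.82 and 1.34 with 1 library left out, in the same order; in these fits the lone library of an agent is assumed to vary like the other agent's. Becn1 turned from -0.03 to 0.0134 without the DMSO 12 h library, in a range of -0.07 to 0.01, and had an adjusted p of at least 0.73 in all 14 alternatives. With 1 library left out and no time term, each shift follows from the difference between the 12 h and 24 h libraries of the agent that lost 1. Time and culture cannot be told apart in that difference. The causes of the other changes were not tested. Scaling to total reads put the 12 h log2 ratio of Sqstm1 at 1.23; median-of-ratios factors were 1.00248 in every library, so that scaling could change no ratio. IDs at least 2-fold different numbered 1082 at 12 h and 808 at 24 h from 1 CPM, and 365 and 214 from 20 CPM, against 607 and 411. The time term already sets the agents side by side within each time. No pairing beyond that was possible, because each combination of agent and time had 1 library and the labels give no replicate numbers.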
